A study of Mus musculus with 2 samples.

Results

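The genes described here are *Klf2*, *S1pr1*, *Il7r*, *Foxo1*, *Foxp1*, *Bach2*, *Klf3* and *Btg1*, 8 of the 27998 genes counted in islet CD8 T cells and Foxp3+ regulatory T cells (Tregs) of NOD mice with or without CD137. They were taken by their symbols, as genes known for T cell quiescence and recirculation, with earlier results of these data known. The NOD mouse develops autoimmune diabetes as T cells infiltrate the pancreatic islets, and CD137 (4-1BB), encoded by *Tnfrsf9*, is a costimulatory receptor that activated T cells place on their surface. The wild-type library came from the strain NOD.Foxp3-EGFP and the knockout library from NOD.Tnfrsf9-/-.Foxp3-EGFP, whose mice carry the deletion in all cells. The Foxp3-EGFP reporter is thus present in both. Each library pooled islet cells of 6 females aged 9 to 10 wk, with sorted CD8 T cells and GFP+ Tregs processed together. Each genotype thus had 1 library, and the spread between mice could not be judged. Genotype and library therefore cannot be told apart. No value below has a test, and every interval is a 95% interval that covers counting error only. Which part of *Tnfrsf9* the knockout allele lacks is not given in the sources used here.

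A T cell that has not met antigen, or has returned to rest, is held out of the cell cycle by an active gene program and keeps circulating between blood and lymph nodes. FOXO1 stands at the head of that program: in the absence of antigen receptor and growth factor signals it stays in the nucleus and activates *Klf2* and *Il7r*, and KLF2 in turn activates *S1pr1*, the receptor that lets T cells leave tissues and lymph nodes along a lipid gradient. Antigen receptor signaling moves FOXO1 out of the nucleus and shuts the program down. FOXP1 restrains responses to IL-7 and entry into the cycle, BACH2 represses effector genes and is needed for stable Tregs, KLF3 is a repressor of the same factor family as KLF2, and BTG1 is an anti-proliferative adaptor linked to mRNA decay.

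In the GRCm38 mouse assembly, with the GENCODE vM21 annotation, the members range from short genes to very long ones. *Klf2* (chr8:72319033-72321656, plus strand) spans 2624 bases, *S1pr1* (chr3:115710433-115715072, minus strand) 4640 and *Btg1* (chr10:96617006-96622809, plus strand) 5804. *Il7r* (chr15:9505788-9530176, minus strand) spans 24389 bases and *Klf3* (chr5:64803388-64832901, plus strand) 29514. *Foxo1* (chr3:52268336-52353221, plus strand) spans 84886 bases, *Bach2* (chr4:32238804-32586108, plus strand) 347305 and *Foxp1* (chr6:98925338-99522721, minus strand) 597384. These spans matter for the comparisons below, by genotype, by *Tnfrsf9* UMIs and between wild-type lineages, because the ratios moved with span over all genes. *Foxp1* overlaps *Gm20696* on its own strand, a gene with 615 UMIs in the cells used, so reads of the shared stretch are uncertain. The antisense genes *Gm20402*, within *Foxo1*, and *Bach2os*, within *Bach2*, had 1 and 3 UMIs.

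RefSeq promoter windows were at hand for 7 of the 8 members. They were searched, over 250 bases before each RefSeq start and on both strands, for the forkhead letters GTAAACA, the KLF letters CACCC and the BACH letters TGAGTCA. The windows of *Il7r*, *Bach2* and *Foxp1* lie inside the annotated genes. Those of *Klf2* and *Klf3* run into the annotated gene, with 221 and 117 of the 250 bases before it. The forkhead letters, found in 3.17% of 32851 mouse promoter windows, occurred in the window of *Btg1* and in no other. The KLF letters, found in 52.0% of all windows, occurred 5 times in the window of *Klf3*, once in that of *Klf2* and in 2 of the 3 windows of *Foxp1*, and the BACH letters, found in 4.46%, in none. The *Klf2* match of the KLF letters, 19 bases before the RefSeq start, and those of *Klf3* at 120, 111 and 48 bases fall within the annotated genes. After the *Klf2* sequence had been read, the MEF2 box (CTA, then 4 A or T, then TAG) was searched too. *Klf2* alone of the members held it, 118 bases before its RefSeq start, against 0.508% of all windows. MEF2 factors are known activators of *Klf2* in endothelium. The *Klf2* and *Btg1* windows are shown because they hold these rarer letters at short genes whose levels are described below; capitals mark the MEF2 box in *Klf2* (chr8:72318812-72319032, plus strand, stopped before the annotated gene) and the forkhead letters, read on the opposite strand, in *Btg1* (chr10:96616751-96617000, plus strand), both GRCm38.p6.
Klf2: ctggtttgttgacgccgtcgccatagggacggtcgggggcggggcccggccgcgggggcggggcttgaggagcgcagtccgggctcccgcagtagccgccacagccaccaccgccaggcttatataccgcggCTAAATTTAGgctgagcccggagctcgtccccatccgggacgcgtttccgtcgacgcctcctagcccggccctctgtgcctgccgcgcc
Btg1: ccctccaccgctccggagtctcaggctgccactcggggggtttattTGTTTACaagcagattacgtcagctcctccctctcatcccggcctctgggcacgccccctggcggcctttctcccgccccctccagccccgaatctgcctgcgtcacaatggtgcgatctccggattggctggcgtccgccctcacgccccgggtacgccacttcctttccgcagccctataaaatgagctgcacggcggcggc
A match is a run of letters and not evidence of binding, and the absence of one covers only these windows.

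The wild-type library held 2804 barcodes, of which 2714 had 200 to 5000 genes and at most 20% mitochondrial UMIs, and the knockout library 2991, of which 2915 passed. A cell counted as a CD8 T cell with at least 2 UMIs of *Cd8a* and *Cd8b1* and none of *Cd4* and *Foxp3*, and as a Treg with none of the former and at least 1 of *Cd4*, *Foxp3*, *Il2ra* and *Ikzf2*. This gave 891 wild-type and 1200 knockout CD8 T cells (7014920 and 7908290 UMIs) and 1552 and 1444 Tregs (8888924 and 8152788 UMIs). The median depth was 6076 and 5275 UMIs per CD8 T cell and 4302 and 4309 per Treg. *Cd3d*, *Cd3e* and *Cd3g* were present in all 4 classes, with a summed level of 3029 to 3760 UMIs per 1000000 UMIs of the class (CPM), and B cell, acinar, endocrine and erythroid lists summed to at most 23.7 CPM. The myeloid list reached 270 to 438 CPM, mostly *Cst3* and *Cd74*. Of its 5 markers, 4 had UMIs in 3 of the 4 classes, with *Csf1r* at 0, and all 5 in knockout CD8 T cells. The endothelial and stromal list reached 42.8 to 94.6 CPM, mostly *Pecam1*. The NK list summed to 99.9 CPM in wild-type and 33.3 CPM in knockout CD8 T cells, nearly all of it *Eomes*. The part of these lists in the results below was not tested. The 2 libraries shared 16 barcodes, and without these cells the counts of members by genotype given below were the same.

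The targeted gene was lower, but not at 0, in the knockout library. *Tnfrsf9* had 747 UMIs in wild-type and 253 in knockout CD8 T cells, 106 and 32.0 CPM, while Tregs had 2993 and 898 UMIs, 337 and 110 CPM. A 3′ tag can lie outside the deleted part of a gene, so the remaining counts neither support nor contradict the label.

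All 8 members were measured in the 4 classes, with at least 251 UMIs each. In CD8 T cells 6 of them were at least 1.5-fold higher in the knockout, a size that 9.86% of the 8590 genes with at least 100 UMIs reached in that direction. None was lower. Among Tregs 3 of 8 were at least 1.5-fold higher, against 4.25% of 9002 genes, and none was lower. The median log2 ratio of knockout over wild type was 1.06 over the members and 0.02 over all genes in CD8 T cells, and 0.56 and 0.04 in Tregs.

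**Figure D1:**
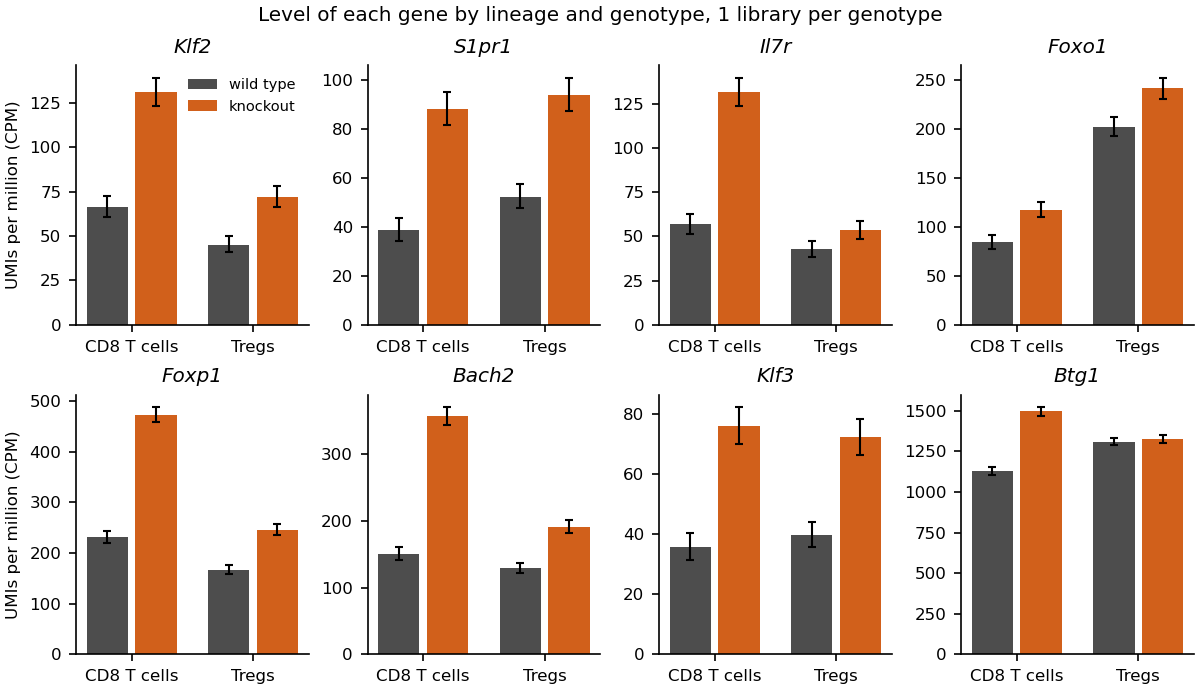
Level of each gene (CPM, linear axis from 0) in CD8 T cells and Tregs of the wild-type (grey) and knockout (orange) library; each bar is 1 library and error bars are exact 95% Poisson intervals. The knockout bar is the taller one for every gene in CD8 T cells, and in Tregs the pair for *Btg1*, at 1311 and 1329 CPM, is the closest.

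Among the transcription factors, *Klf2* had 66.4 CPM in wild-type and 131 CPM in knockout CD8 T cells (466 and 1035 UMIs), a log2 ratio of 0.98 (0.82 to 1.14). In Tregs it had 45.2 and 72.1 CPM, a log2 ratio of 0.67 (0.49 to 0.86). The knockout value thus lay above the wild-type interval in both lineages. *Klf3*, the repressor of the same family, stood at 35.8 and 76.1 CPM in CD8 T cells and at 39.7 and 72.2 CPM in Tregs. Its log2 ratios, 1.09 (0.87 to 1.31) and 0.86 (0.67 to 1.06), differed between lineages by 0.23 (-0.06 to 0.51), within counting error.

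*Foxo1* differed least of the transcription factors. It had 84.4 CPM in wild-type and 117 CPM in knockout CD8 T cells, a log2 ratio of 0.47 (0.32 to 0.63), and 202 and 242 CPM in Tregs, a log2 ratio of 0.26 (0.16 to 0.35). Neither reached 1.5-fold. *Foxp1*, by contrast, went from 232 to 473 CPM between the wild-type and knockout CD8 T cells, a log2 ratio of 1.03 (0.95 to 1.12). In Tregs it had 167 and 245 CPM and a log2 ratio of 0.56 (0.46 to 0.65), just short of 1.5-fold. *Bach2* had the largest ratio of the members in CD8 T cells, with 151 and 358 CPM and a log2 ratio of 1.25 (1.14 to 1.35), and in Tregs it had 130 and 192 CPM and a log2 ratio of 0.56 (0.45 to 0.67).

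Of the receptors, *S1pr1*, which guides exit from tissue, had 38.8 CPM in wild-type and 88.1 CPM in knockout CD8 T cells (272 and 697 UMIs), a log2 ratio of 1.18 (0.98 to 1.39). In Tregs it had 52.3 and 94.0 CPM and a log2 ratio of 0.84 (0.68 to 1.01). *Il7r*, the receptor chain for the survival cytokine IL-7, set the lineages apart more than any other member. It had 56.9 and 131 CPM in CD8 T cells, a log2 ratio of 1.21 (1.04 to 1.38), against 42.7 and 53.4 CPM in Tregs, a log2 ratio of 0.32 (0.12 to 0.52). The difference between these ratios was 0.89 (0.63 to 1.15). Tregs hold IL-7 receptor low as a rule, and at least 1 *Il7r* UMI was seen in 15.3% of Tregs in the wild type and in 17.0% in the knockout. The shares of CD8 T cells were 23.3% and 38.8%.

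*Btg1* was found in at least 97.2% of cells in each class. Its level was 1131 CPM in wild-type and 1498 CPM in knockout CD8 T cells, a log2 ratio of 0.40 (0.36 to 0.45), and 1311 and 1329 CPM in Tregs, a log2 ratio of 0.02 (-0.02 to 0.06). It was the one member with no difference beyond counting error in Tregs. Over all cells the CD8 ratio exceeded the Treg ratio for all 8 members, by 0.22 for *Foxo1* to 0.89 for *Il7r*. The difference exceeded counting error for 7 of them. Spread between mice could not be set against it. Without cells with a UMI of *Mki67* or *Top2a* the order turned for *Klf2* (0.78 in CD8 T cells and 0.79 in Tregs), *Klf3* (0.80 and 0.85) and *Foxo1* (0.31 and 0.34). *S1pr1* was then nearly equal (0.91 and 0.89), and the CD8 ratio stayed the higher one for the other members.

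**Figure D2:**
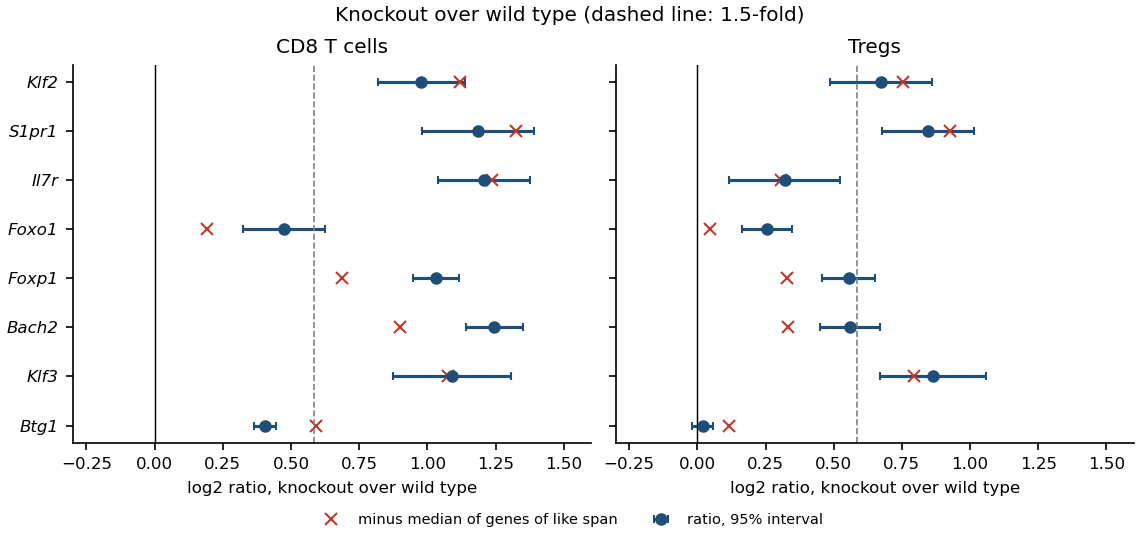
Log2 ratio of knockout over wild type for each gene in CD8 T cells (left) and Tregs (right); circles with bars are the ratio and its exact 95% interval, crosses the ratio after the median of genes of like genomic span was subtracted, and the dashed line marks 1.5-fold. Crosses lie to the left of the circles for the long genes *Foxo1*, *Foxp1* and *Bach2*, and to the right for the short genes *Klf2*, *S1pr1* and *Btg1*.

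Ratios of knockout over wild type moved with the genomic span of the gene. In CD8 T cells genes were put in 10 groups of equal size by span, and the median log2 ratio was -0.14 in the group of the shortest genes and 0.35 in that of the longest, above 114023 bases. The same medians in Tregs were -0.08 and 0.23. *Foxp1* and *Bach2* belong to the longest group. Less the median of its own group, a procedure chosen after seeing the data, *Foxp1* had 0.69 and *Bach2* 0.90 in CD8 T cells, and 0.33 and 0.33 in Tregs. *Foxo1* was left with 0.19 and 0.05. *Klf2* (1.12 and 0.76), *S1pr1* (1.33 and 0.93) and *Il7r* (1.24 and 0.31) changed little or became larger, and *Klf3* stood at 1.08 and 0.79. In CD8 T cells the count at 1.5-fold was then 7 of 8, with *Btg1* at 0.59. *Malat1*, a nuclear RNA, had 16377 and 21588 CPM in wild-type and knockout CD8 T cells and 24416 and 25650 CPM in Tregs. Its part in the trend was not tested.

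Lineages were compared within each library. In the wild type, *Foxo1* was 2.40-fold higher in Tregs than in CD8 T cells, with a log2 ratio of 1.26 (1.13 to 1.40), and was the only member past 1.5-fold. Over all genes 15.4% were that much higher in Tregs and 6.19% that much lower. These wild-type ratios moved with span as well, from a median log2 ratio of -0.004 in the group of the shortest genes to 0.30 in the longest. *Klf2* (-0.55), *Foxp1* (-0.47), *Il7r* (-0.41) and *Bach2* (-0.22) were lower in wild-type Tregs by less than that. *S1pr1* (0.43) and *Btg1* (0.21) were higher, and *Klf3* (0.15, -0.09 to 0.39) did not differ beyond counting error. In the knockout, where the CD8 levels were higher, 4 members were at least 1.5-fold lower in Tregs, against 5.35% of 8893 genes: *Il7r* at -1.30 (-1.46 to -1.14), *Foxp1* at -0.95, *Bach2* at -0.90 and *Klf2* at -0.86. *Foxo1* stayed higher in Tregs there, at 1.04 (0.93 to 1.16), alone of the members past 1.5-fold in that direction, which 13.8% of all genes reached.

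Wild-type cells were next grouped by their own *Tnfrsf9* UMIs, which places cells with much of the activation-induced receptor transcript against cells with none seen. In Tregs all 8 members were lower in the 218 cells with at least 5 *Tnfrsf9* UMIs than in the 773 with 0, and 6 were at least 1.5-fold lower, a size that 10.6% of 6119 genes reached. In CD8 T cells all 8 were at least 1.5-fold lower in the 136 cells with at least 2 UMIs than in the 651 with 0, against 11.6% of 6343 genes. The median log2 ratio was -1.41 over the members and -0.01 over all genes in Tregs, and -1.29 and 0.02 in CD8 T cells. Ratios here moved with span in the other direction than by genotype. The medians of the shortest and longest genes were 0.12 and -0.26 in CD8 T cells, and 0.13 and -0.23 in Tregs. Less the median of its span group, *Foxo1* was at -0.50 and *Bach2* at -0.53 in CD8 T cells, where 6 of 8 then passed 1.5-fold.

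*Klf2* had the steepest decline in Tregs. Its level was 73.9 CPM in cells with 0 *Tnfrsf9* UMIs, 40.1 with 1, 29.5 with 2 to 4 and 11.8 with at least 5 (254, 66, 62 and 20 UMIs), a log2 ratio of -2.65 (-3.39 to -1.99) between the ends. In CD8 T cells it had 85.6 CPM with 0, 45.9 with 1 and 27.9 with at least 2, a log2 ratio of -1.62 (-2.09 to -1.18). The levels in successive groups stepped down in both lineages, but the intervals overlapped between 1 and at least 2 UMIs in CD8 T cells and between 1 and 2 to 4 in Tregs. *S1pr1* followed a like order, with 84.0, 44.9, 30.5 and 22.3 CPM in Tregs, a log2 ratio of -1.91 (-2.44 to -1.42). In CD8 T cells *S1pr1* had 54.2, 21.3 and 8.31 CPM, a log2 ratio of -2.71 (-3.60 to -1.93).

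On all UMIs *Il7r* was the steepest in CD8 T cells, where it had 81.7, 28.8 and 7.71 CPM (359, 27 and 13 UMIs) and a log2 ratio of -3.41 (-4.33 to -2.61). In Tregs *Il7r* had 61.6, 32.8, 37.6 and 20.6 CPM, a log2 ratio of -1.58 (-2.14 to -1.06), and did not step down between 1 and 2 to 4 UMIs. *Klf3* had 58.4, 41.9, 26.2 and 16.5 CPM in Tregs and 46.7, 29.9 and 10.7 CPM in CD8 T cells, with log2 ratios of -1.83 (-2.45 to -1.25) and -2.13 (-2.91 to -1.43).

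On all UMIs the 3 long transcription factor genes declined less than *Klf2*, *S1pr1*, *Il7r* and *Klf3*. That order depended on depth in Tregs. Among Tregs of 3000 to 8000 UMIs, *Foxp1* and *Bach2* declined more than *Klf3*, and in Tregs thinned to 2000 UMIs more than *Il7r*. *Foxp1* had 228, 151, 138 and 96.4 CPM in Tregs, a log2 ratio of -1.24, and in CD8 T cells 285, 139 and 145 CPM, a log2 ratio of -0.97 (-1.17 to -0.77) with no further step after the first UMI. *Bach2* had 172, 126, 94.2 and 92.8 CPM in Tregs and 178, 113 and 103 CPM in CD8 T cells, log2 ratios of -0.89 and -0.79. *Foxo1*, the factor upstream of *Klf2* and *Il7r* in the known pathway, had 239, 189, 179 and 169 CPM in Tregs, a log2 ratio of -0.50 (-0.70 to -0.31), and 95.6, 77.9 and 58.7 CPM in CD8 T cells, a log2 ratio of -0.70 (-1.03 to -0.38). On all UMIs the *Foxo1* ratio was nearer to 0 than those of *Klf2* and *Il7r* in both lineages. In Tregs of 3000 to 8000 UMIs that order held. In Tregs thinned to 2000 UMIs *Foxo1* and *Il7r* were alike, both at -0.22. *Btg1* had 1517, 1328, 1120 and 1115 CPM in Tregs and 1311, 1040 and 714 CPM in CD8 T cells, log2 ratios of -0.44 and -0.88.

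**Figure D3:**
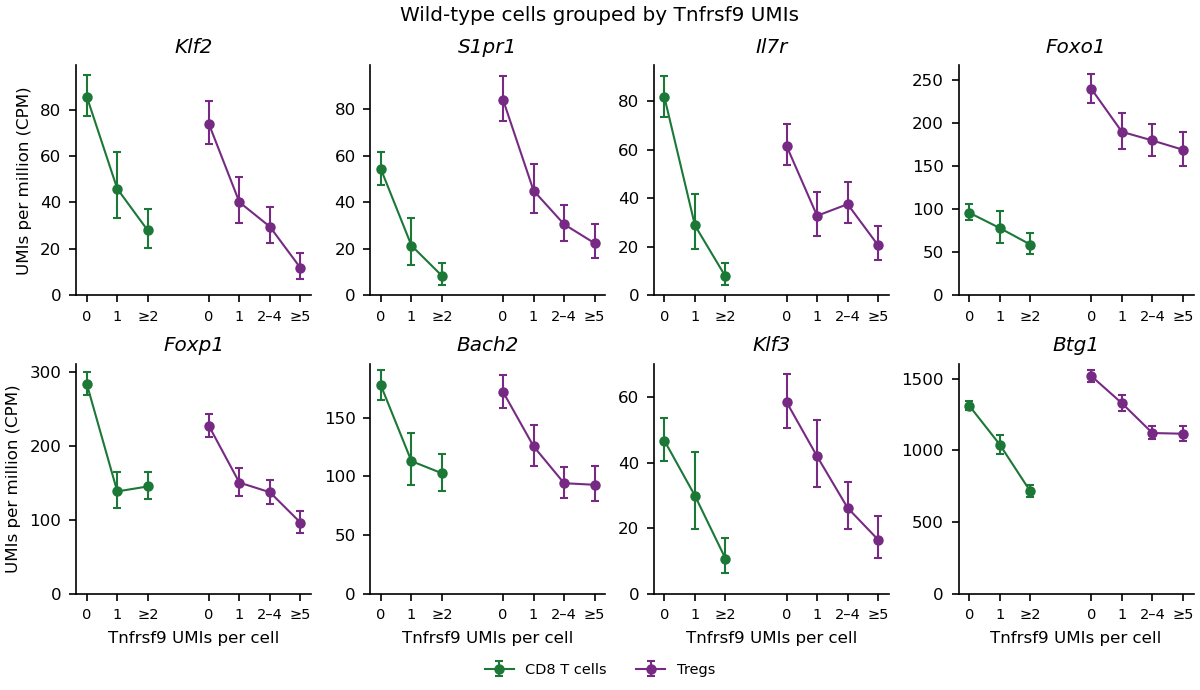
Level of each gene (CPM, linear axis from 0) in wild-type cells grouped by their *Tnfrsf9* UMIs, CD8 T cells in green (0, 1, at least 2) and Tregs in purple (0, 1, 2 to 4, at least 5); points are sums over the cells of 1 library with exact 95% Poisson intervals. The left-most point is the highest of each line, from 46.7 CPM for *Klf3* in CD8 T cells to 1517 CPM for *Btg1* in Tregs.

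Cells with many *Tnfrsf9* UMIs were also deeper. The median depth was 3486 UMIs in Tregs with 0 and 6243 in those with at least 5, and 5609 and 11224 in CD8 T cells with 0 and with at least 2. Among cells of 3000 to 8000 UMIs, *Klf2* in Tregs was at -2.59, *S1pr1* at -1.77, *Il7r* at -1.26, *Foxp1* at -1.23, *Bach2* at -1.08, *Klf3* at -1.03 and *Foxo1* at -0.24. *Btg1* was at -0.01 in these Tregs and at -0.16 in CD8 T cells of that depth, which ended its call there. When every cell was thinned to 2000 UMIs before grouping, *Bach2* in CD8 T cells stood at -0.04 (at least 1 against 0) and *Il7r* in Tregs at -0.22 (at least 2 against 0), no longer past 1.5-fold. *Foxo1* in Tregs stood at -0.22 too. The sizes of the steepest ratios in CD8 T cells depended on the cells used. *Klf2*, at -1.62 on all UMIs, was at -3.03 among cells of 3000 to 8000 UMIs, at -2.84 after thinning and at -3.72 without cycling cells, those with a UMI of *Mki67* or *Top2a*. *S1pr1* was at -3.93, -1.18 and -3.42 in the same order, and *Il7r* at -4.50, -2.21 and -3.75, so that after thinning *Klf2* and not *Il7r* was the steepest. *Klf2* then had 3 and 4 UMIs in the upper groups of CD8 T cells and Tregs, which leaves these sizes uncertain.

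The remaining *Tnfrsf9* transcript of the knockout gave a like order for most members, with fewer cells in the upper groups. Between the ends all 8 were lower beyond counting error in knockout CD8 T cells and 6 of 8 in knockout Tregs. In knockout Tregs *Klf2* had 90.3 CPM in the 1016 cells with 0 UMIs and 6.55 CPM (2 UMIs) in the 38 with at least 5. In knockout CD8 T cells *Il7r* had 152 CPM in the 1058 cells with 0 and 24.2 CPM in the 48 with at least 2. *Foxo1* in knockout Tregs was at 245 and 239 CPM, a log2 ratio of -0.03 (-0.39 to 0.31), and *Btg1* at 1373 and 1337 CPM. In knockout Tregs thinned to 2000 UMIs, with 0 and at least 2 *Tnfrsf9* UMIs, *Il7r* had 76.0 and 70.3 CPM. *Btg1* was higher in the upper group there, at 1665 and 2289 CPM, and the other members were lower. Between genotypes, the cells with 0 UMIs are not a matched group, since the knockout has less *Tnfrsf9* transcript to count. Within those cells, 6 of 8 members were still at least 1.5-fold higher in knockout CD8 T cells, against 8.36% of 7917 genes, and none of 8 in knockout Tregs, against 4.6% of 7644, where the highest log2 ratios were 0.57 for *Klf3* and 0.43 for *S1pr1*.

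Cells were then split, after thinning to 2000 UMIs, into cycling cells, with at least 1 UMI of *Mki67* or *Top2a*, and all others. The cycling cells made up 17.5% of wild-type (153 of 874) and 11.3% of knockout CD8 T cells (134 of 1184, 9.57 to 13.3%). Among Tregs they made up 11.7% (10.1 to 13.5%) in the wild type and 15.3% (13.4 to 17.3%) in the knockout. These Treg shares rest on the choice of gate genes. *Mki67* and *Top2a* were the only 2 of 7 cycling genes at least 1.5-fold higher in knockout Tregs. All 8 members were lower in cycling than in other cells in each of the 4 classes. *Foxp1* in wild-type CD8 T cells had 78.4 CPM in cycling and 345 CPM in other cells, and *Klf2* there had 13.1 CPM (4 UMIs) and 110 CPM. *Foxo1* in wild-type Tregs was the least apart, with 205 and 228 CPM and overlapping intervals.

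Outside the cycle, 6 of 8 members were at least 1.5-fold higher in knockout CD8 T cells, against 9.85% of 4711 genes. *Bach2* was at 213 CPM in the wild type and 479 CPM in the knockout, a log2 ratio of 1.17 (0.98 to 1.36). *Klf2* was at 110 and 175 CPM, a log2 ratio of 0.68 (0.40 to 0.96), and *S1pr1* at 61.0 and 116 CPM, a log2 ratio of 0.93 (0.57 to 1.30). In Tregs outside the cycle 5 of 8 were at least 1.5-fold higher, against 5.13% of 6142 genes. *S1pr1* was at 65.2 and 136 CPM there, a log2 ratio of 1.05 (0.78 to 1.33), and *Klf3* at 58.7 and 115 CPM, a log2 ratio of 0.97 (0.67 to 1.26). *Il7r* in these Tregs, at 76.7 and 84.5 CPM, did not differ beyond counting error. *Foxp1*, at 226 and 339 CPM, passed 1.5-fold only narrowly. On all UMIs, without cells with a UMI of *Mki67* or *Top2a*, *Foxp1* was at a log2 ratio of 0.58 and the Treg count was 4.

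In cycling cells the counts were small. A single UMI of *Mki67* or *Top2a* placed a cell in this group, and the groups of the 2 libraries were unlike in CD8 T cells. Median depth was 12228 UMIs in wild-type and 7869 in knockout cycling CD8 T cells. The 3 other cycling genes with enough UMIs there had a median log2 ratio of knockout over wild type of -0.57. The part of this in the values below was not tested. *Il7r* had 20 UMIs in 134 knockout and 0 in 153 wild-type cycling CD8 T cells, and *S1pr1* had 20 and 1. The interval of the wild-type *Il7r* level reached up to 12.1 CPM. *Foxp1* had 82 and 24 UMIs there, 306 and 78.4 CPM, with intervals that did not overlap. In cycling Tregs *S1pr1* had 47 UMIs in the knockout and 13 in the wild type, 111 and 37.6 CPM. *Il7r* did not differ beyond counting error in cycling Tregs, at 30.7 and 28.9 CPM, and neither did *Klf2*, at 51.9 and 37.6 CPM. The mix of other cell states in the 2 libraries, and its part in the ratios, is not reported here.

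**Figure D4:**
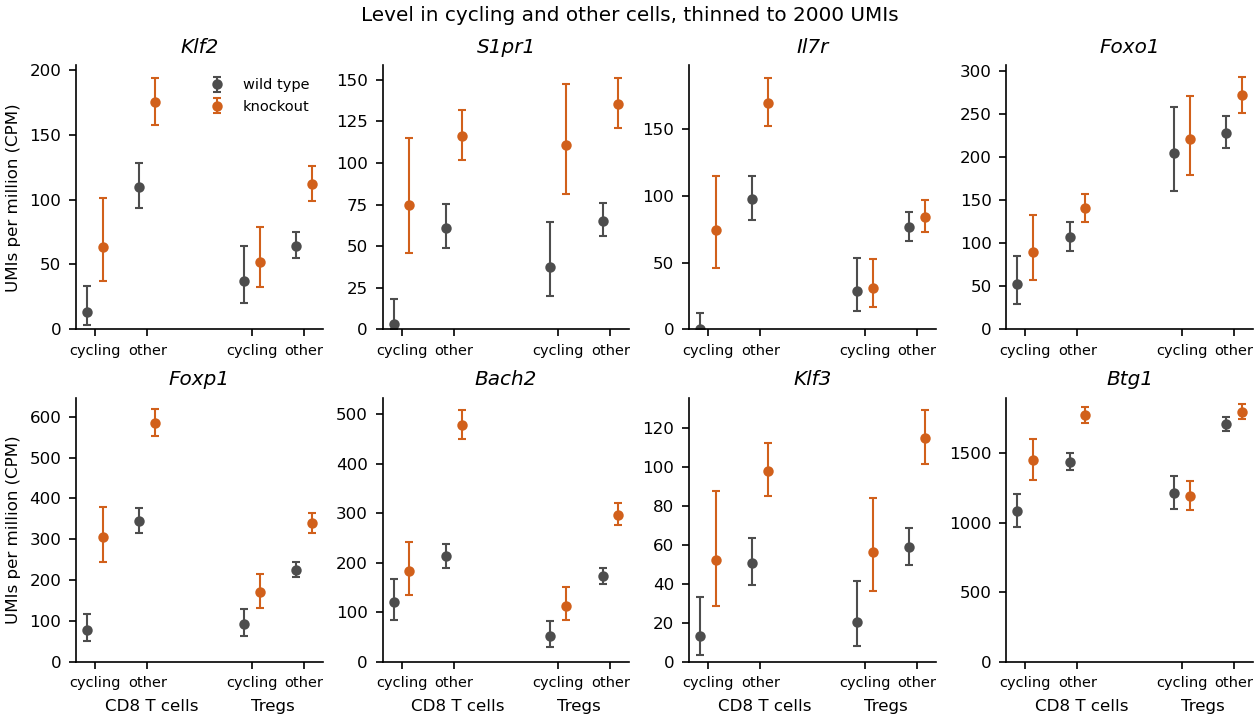
Level of each gene (CPM, linear axis from 0, cells thinned to 2000 UMIs) in cycling and other CD8 T cells and Tregs of the wild-type (grey) and knockout (orange) library; points are sums over cells with exact 95% Poisson intervals. The points for cycling cells lie below those for other cells of the same library, as for *Foxp1* in wild-type CD8 T cells at 78.4 and 345 CPM.

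Single cells carried few UMIs of most members. With each cell thinned to 2000 UMIs and *Btg1* left out, the mean number of members seen per cell was 1.21 of 7 in wild-type and 2.10 in knockout CD8 T cells, and 1.21 and 1.66 in Tregs. None of the 7 was seen in 36.5% (33.3 to 39.8%) of wild-type and 15.7% (13.7 to 17.9%) of knockout CD8 T cells, and in 32.0% (29.7 to 34.5%) and 22.5% (20.3 to 24.7%) of Tregs. The share with at least 3 was 15.7% and 39.0% for CD8 T cells, and 13.3% and 25.3% for Tregs. As a gauge of free RNA from beta cells, *Ins2*, a beta cell gene, was seen in 0.458% to 1.58% of the same cells. Free RNA from the T cells themselves was not gauged. Across cells of a class the Pearson correlation of 2 members ran from -0.00 to 0.32 over 28 pairs and 4 classes, with class medians of 0.07 to 0.10, which at such counts is no finding.

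**Figure D5:**
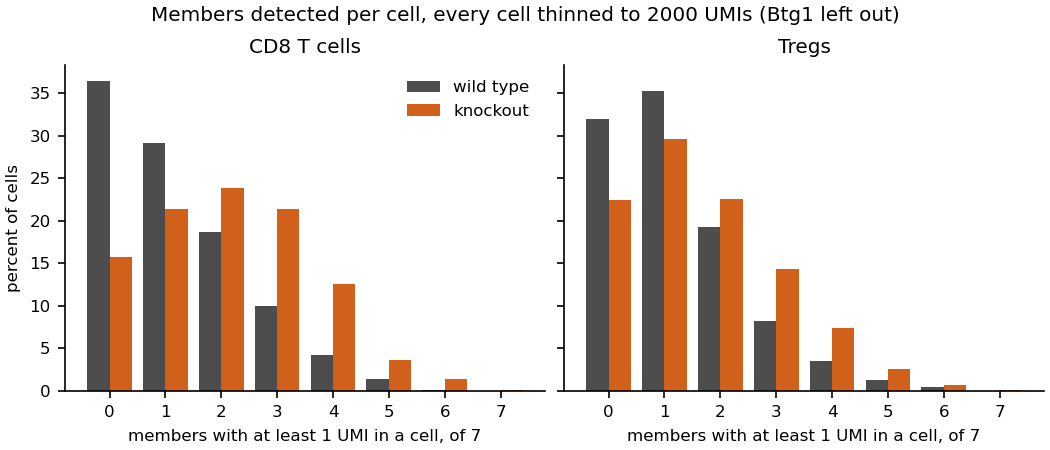
Share of cells (percent, linear axis from 0) by the number of members with at least 1 UMI, of 7 with *Btg1* left out, in wild-type (grey) and knockout (orange) CD8 T cells and Tregs, every cell thinned to 2000 UMIs. The share with 0 members is 36.5% in wild-type and 15.7% in knockout CD8 T cells.

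Other genes of the pathway were taken from lists drawn up with earlier results of these data known, and the genes named from each were chosen by the size of their ratio. Over all genes 9.86% were at least 1.5-fold higher and 5.73% that much lower in knockout CD8 T cells, and 4.25% and 1.2% in knockout Tregs, the shares against which the counts of each list are to be read. Of 6 genes for lymph node homing, egress and retention, 2 were at least 1.5-fold higher in knockout CD8 T cells and 1 in knockout Tregs, and none was lower. *Ccr7*, the receptor for lymph node chemokines, had a log2 ratio of 1.33 in CD8 T cells and -0.33 in Tregs. *Cd69*, whose product pulls S1PR1 from the cell surface, was higher along with *S1pr1*, at 1.01 in CD8 T cells, and stood at 0.47 in Tregs. *Gpr183*, an oxysterol receptor that positions lymphocytes, was at 0.38 and 0.81.

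Of 9 FOXO-activated and IL-7 survival genes, 6 were at least 1.5-fold higher in knockout CD8 T cells and 2 in knockout Tregs, with none lower. *Cdkn1b*, which encodes the cell cycle inhibitor p27, was at 1.34 in CD8 T cells and 1.13 in Tregs. *Il6ra*, an IL-6 receptor chain, was at 1.44 and 0.64, and *Sesn1*, a FOXO target that restrains mTORC1, at 0.98 and 0.44. *Pik3ip1*, an inhibitor of PI3-kinase, was at 1.47 in CD8 T cells and -0.21 in Tregs, the latter within counting error (-0.60 to 0.18).

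Of 10 other quiescence and anti-proliferative genes, 4 were at least 1.5-fold higher in knockout CD8 T cells, with *Lef1* at 1.37, *Tob1* at 1.22, *Satb1* at 0.85 and *Btg2* at 0.62, and 1 in knockout Tregs, *Tob1* at 0.65. None was lower. Of 10 activation and growth genes, 2 were higher in knockout CD8 T cells, the transcription factor genes *Myc* at 0.73 and *Irf4* at 0.59. Lower was 1, the effector factor *Batf* at -0.62. None passed in Tregs, where *Nr4a1*, induced by antigen receptor signals, was at -0.57. Of 7 cycling genes none was higher in knockout CD8 T cells and 4 were lower, *Ube2c* at -1.44, *Cdk1* at -1.33, *Birc5* at -1.22 and *Mcm2* at -1.04. In Tregs 2 were higher and none lower. Those were *Mki67* at 1.01 and *Top2a* at 0.64, named after their values were seen. Of the other 5 in Tregs, *Ube2c* was at -0.58 (-0.72 to -0.45), *Cdk1* at -0.15, *Birc5* at -0.02, *Mcm2* at 0.07 and *Pcna* at 0.20.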

How the data were processed

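Islet CD8 T cells and GFP+ Tregs of each strain had been prepared with the Chromium Single Cell 3′ v2 kit, and the deposited values are UMI counts per gene and cell, which the authors made with Cell Ranger 7.0.0 on mm10. Whether intronic reads were counted is not given in the sources used here. Members, lists and cell gates were chosen with earlier results of these data known. For each library and class, UMIs were added up and divided by the class total (CPM). Intervals were exact Poisson (CPM), exact conditional (log2 ratios) and Clopper-Pearson (shares), at 95%. Those of the differences between lineage ratios were a normal approximation from the counts, at the same level. A gene counted as called at 1.5-fold or more among genes with at least 100 UMIs in the 2 sums, and a 0 entered a ratio as 0.5. No doublet caller was run; 12 wild-type and 19 knockout cells with at least 2 UMIs of *Cd8a* and *Cd8b1* and at least 2 of *Cd4* and *Foxp3* were in neither gate, among the 271 kept cells of each library that neither gate took. All members were named, with the 2 to 4 companion genes of largest ratio per list. Alternatives used edgeR 4.0.16 TMM factors, median-of-ratios scaling, other cell weights, filters and gates, and thinning. Python 3.11.15, scipy 1.17.1 and R 4.3.3 were used. The calculation was tested on simulated counts that held counting error only, without spread between cells, mice or libraries. Of the gene identifiers, 27645 of 27998 were found in GENCODE vM21. *Trac* was not among the symbols. One gene, the results that need it and the split into 3 cell states that was planned are not reported here, and the split into cycling and other cells was chosen after seeing the data.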

Additional observations from a re-analysis of the deposited data

Results flagged for a closer look

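Several companion genes, but none of the members, differed between the libraries in opposite directions in the 2 lineages, each beyond its counting error; with 1 library per genotype the difference was not tested. As the log2 ratio of knockout over wild type in CD8 T cells minus that in Tregs, it was 1.67 for *Ccr7*, 1.06 for *Satb1* and 0.52 for *Il2rg*, which were higher in knockout CD8 T cells and lower in knockout Tregs. It was -1.35 for *Mki67*, -1.15 for *Top2a*, -0.63 for *Pcna* and -0.45 for *Itga4*, which were lower in knockout CD8 T cells and higher in knockout Tregs.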

How the results depend on the processing

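The count of members at least 1.5-fold higher in knockout CD8 T cells was 6, and 6 or 7 over 11 alternatives, and that of members lower with *Tnfrsf9* ran from 6 to 8 in CD8 T cells and from 5 to 7 in Tregs over 8. In knockout Tregs the count of 3 became 4 under 4 alternatives and 0 among cells without a *Tnfrsf9* UMI, a comparison added after seeing the data whose groups are unmatched by construction. Removal of the span trend was also added then. Of 304 member values under the alternatives, 299 kept their direction, and the others were *Btg1* and *Il7r* in Tregs, neither called. With at least 20 UMIs in place of 100, 13.7% and 6.93% of all genes were called higher in CD8 T cells and Tregs. No paired analysis was possible because each genotype had 1 library, and for that reason no library could be left out. Upper *Tnfrsf9* groups rest on few UMIs of the rarer members, which limits the size of their ratios.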
